A study of Mus musculus with 27 samples.

Results

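Zone 2, the midlobular band of the liver lobule, was compared with both outer zones to find genes that peak or dip there. It was represented by 9 of the 27 libraries, chosen by the zone in their labels, and it was set against 9 libraries of zone 1, around the portal vein, and 9 of zone 3, around the central vein. The study describes its outer zones as the 3 layers of cells next to each vein and its middle zone as all parenchyma between them. All libraries came from female wild-type (WT) C57BL/6 mice (C57BL/6N in the study's methods) that were non-pregnant (NP) or pregnant at dpc8 or dpc16 (days post coitum), with 3 libraries for each stage and zone. RNA was taken from areas cut out of frozen sections by laser microdissection, so each library holds every cell type of its area. The study describes its 3 replicates as independent experiments, the labels do not tie libraries to animals or give the animals' ages, and p-values therefore measure the spread between these libraries only.

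Blood enters the lobule from the portal vein and hepatic artery, runs along the sinusoids past the hepatocytes and leaves by the central vein. Hepatocytes at either end of this path carry different enzymes, and most zonated genes rise or fall steadily along it. A smaller number of hepatocyte genes is known for a maximum between the ends, among them Hamp and Hamp2, which encode the iron hormone hepcidin and a close relative, and Igfbp2, which encodes a binding protein of insulin-like growth factors. The sinusoids also hold Kupffer cells, the resident macrophages of the liver, which clear particles and worn red cells from the blood.

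The main measure was the midlobular contrast, zone 2 minus the mean of zones 1 and 3 in log2(FPKM + 1), averaged over the 3 stages and fitted with limma for 12952 genes. FPKM scales the fragments of a gene to the length of its transcript and to the mapped fragments of the library, and all p-values called adjusted come from limma with Benjamini-Hochberg adjustment at a threshold of 0.05. A gene was called a strict peak or dip where its differences from zone 1 and from zone 3 had the same sign and both passed that threshold. A wider class took genes whose midlobular contrast passed and whose 2 differences had the same sign, each with an unadjusted p under 0.05. Library depth, estimated from the steps between low FPKM values, was 7.47 to 33.81 M reads (M for the prefix mega), with medians of 13.85 in zone 1, 16.19 in zone 2 and 17.44 in zone 3. Each library had 10581 to 11997 genes at an FPKM of at least 1.

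The mice are labelled female, yet in 6 libraries, 2 in each zone, the genes Ddx3y, Eif2s3y, Kdm5d and Uty of the Y chromosome summed to 7.92 to 23.2 FPKM, against at most 2.97 in the other 21. The same 6 libraries had the highest means of vessel wall and connective tissue genes, 4.29 to 5.93 in log2(FPKM + 1), against 0.78 to 3.57 in the others. In zone 2 they were dpc8 replicate 2 and dpc16 replicate 3. In zone 1 they were NP replicate 1 and dpc8 replicate 1, and in zone 3 they were NP replicate 2 and dpc16 replicate 3. They were kept in the fits, and the peaks, the dips and the lists counted by stage are also given without them. Whether mice, tissue or labels were mixed in these libraries could not be worked out from the sources used here, and their values are given under the zone of their labels.

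With all libraries, few genes peaked or dipped in zone 2, and the numbers depended on single libraries. The midlobular contrast was past the threshold for 18 genes that were higher in zone 2 (0.139% of all genes tested) and 15 that were lower (0.116%), and 557 genes, or 4.3%, had an unadjusted p under 0.05. Of the 33 genes called, 18 lay between the outer zones, 8 peaked in zone 2 and 4 dipped there. The other 3, Slc22a3, Kcne3 and Tnfrsf19, were lower with one sign in both differences, but one of the differences did not reach an unadjusted p of 0.05, and they are named after their values had been seen. The strict rule was met by 1 peak, Lyz2, and 1 dip, Podn (0.00772% each). The wider peaks, 8 genes with Lyz2 among them, were 0.0618% of the genes tested and the wider dips, 4 genes with Podn among them, 0.0309%. Leaving out 1 library gave 4 to 50 higher genes, 0 to 34 wider peaks and 0 to 12 strict peaks, with the highest numbers without replicate 3 of dpc16 zone 2, and array weights gave 73, 49 and 19. Without any threshold, the fitted level of zone 2 was above both outer zones for 28.7% of genes and below both for 25.4%.

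Zone 2 was also compared with each outer zone alone. Against zone 1, 53 genes were higher (0.409%) and 66 lower (0.51%), and against zone 3, 105 were higher (0.811%) and 139 lower (1.07%). The median difference over all genes was -0.01 from zone 1 and 0.03 from zone 3 in log2(FPKM + 1).

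**Figure D1:**
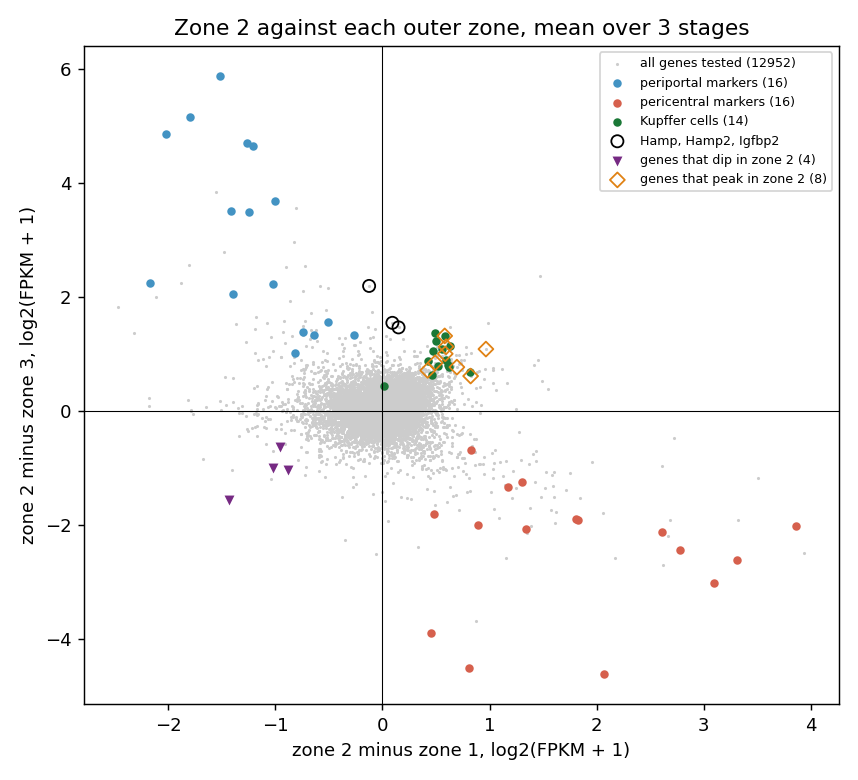
Difference of zone 2 from zone 1 (horizontal axis) and from zone 3 (vertical axis) in log2(FPKM + 1), averaged over the 3 stages, for the 12952 genes tested (grey points). Markers of the portal side lie at the upper left and those of the central side at the lower right, all 14 Kupffer cell markers and the 8 peaks lie above 0 on both axes, the 4 dips lie below 0 on both, and Hamp, Hamp2 and Igfbp2 lie high on the vertical axis and near 0 on the horizontal one.

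Hamp, Hamp2 and Igfbp2 did not meet the strict or the wider rule. All 3 had fitted zone 2 levels within 0.15 of those of zone 1 and above those of zone 3 in log2(FPKM + 1), and with all libraries no difference from zone 1 passed the threshold for any of them. Without replicate 3 of dpc16 zone 2 all 3 lay above both outer zones, with differences from zone 1 of 0.42 for Hamp, 0.33 for Hamp2 and 0.41 for Igfbp2 and adjusted p-values of 0.8695 to 0.926. The midlobular contrast was 1.04 ± 0.59 (SE) for Hamp, 0.81 ± 0.32 for Hamp2 and 0.82 ± 0.35 for Igfbp2, with adjusted p-values of 0.9995, 0.854 and 0.9995. With the replicate block over all stages the contrast of Hamp passed, with an adjusted p of 0.026, while its difference from zone 1 stayed at -0.12, and in the other 9 alternatives it was 0.87 to 1.42 and did not pass. Each set of 9 values per zone is described next, since these genes were taken as the midlobular markers, while the zone of a library comes from its label.

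Hamp in zone 2 was 1647, 1346 and 2245 FPKM in the NP libraries, 1128, 784 and 2636 at dpc8, and 337, 1380 and 21.8 at dpc16. In zone 1 it was 827, 1211 and 1329 in NP, 963, 1222 and 2986 at dpc8, and 423, 1670 and 80.2 at dpc16. In zone 3 it was 790, 447 and 562 in NP, 307, 429 and 551 at dpc8, and 12.1, 133 and 4.41 at dpc16. In the NP livers all 3 zone 2 libraries were above all 6 outer libraries, which was true of 1.27% of genes, while at both pregnant stages zones 1 and 2 overlapped. Hamp differed by -0.12 between zones 2 and 1 (95% confidence interval -1.53 to 1.28), a sign that turned to 0.37 when those with Y-linked FPKM were left out and to 0.22 with array weights, and by 2.197 ± 0.68 (SE) between zones 2 and 3, a 4.58-fold difference in FPKM + 1 with an adjusted p of 0.129. The replicate number was also used as a block at dpc16, where same-numbered libraries deviated together, in a fit chosen after seeing the data. In that fit the adjusted p of the difference between zones 2 and 3 was 3.57e-05. The call was also made without replicate 3 of dpc16 zone 2, where the difference was 2.74 and the adjusted p 0.00758, and without replicate 2 of dpc16 zone 3, with 2.64 and 0.0307. Without the 6 libraries with Y-linked FPKM the adjusted p was 0.0316.

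Hamp2 in zone 2 was 1231, 527 and 391 FPKM in NP, 284, 405 and 788 at dpc8, and 1616, 1038 and 425 at dpc16. In zone 1 it was 809, 289 and 577 in NP, 94.6, 376 and 452 at dpc8, and 1395, 1080 and 1958 at dpc16. In zone 3 it was 606, 248 and 213 in NP, 117, 353 and 279 at dpc8, and 251, 187 and 95.6 at dpc16. Zones 1 and 2 overlapped at every stage, and at dpc16 every library of both was above every zone 3 library. In the main fit, Hamp2 alone of the 3 genes passed the threshold against zone 3, with a difference of 1.47 ± 0.37 (SE), 2.77-fold, and an adjusted p of 0.0374. From zone 1 it differed by 0.15 (95% confidence interval -0.62 to 0.92). The call against zone 3 was lost in 12 of 27 fits that each left out 1 library, with differences of 1.31 to 1.52 and adjusted p-values of 0.0552 to 0.0978. These were the fits without replicates 1 and 2 of NP zone 2, replicates 2 and 3 of NP zone 3, replicates 2 and 3 of dpc8 zone 2, replicates 1 and 3 of dpc8 zone 3, replicates 1 and 2 of dpc16 zone 2, and replicates 2 and 3 of dpc16 zone 3. Hamp and Hamp2 are near-identical copies, so reads may be split between them and the level of each is uncertain.

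Igfbp2 in zone 2 was 403, 438 and 438 FPKM in NP, 184, 437 and 281 at dpc8, and 1689, 1116 and 194 at dpc16. Zone 1 libraries had 219, 394 and 486 in NP, 83.8, 348 and 219 at dpc8, and 1478, 1056 and 856 at dpc16. Zone 3 libraries had 117, 172 and 157 in NP, 71.6, 208 and 82.3 at dpc8, and 496, 306 and 65.9 at dpc16. The NP libraries of zones 1 and 2 all stood above those of zone 3, and zones 1 and 2 overlapped at every stage. Igfbp2 differed by 0.09 from zone 1 (95% confidence interval -0.75 to 0.94) and by 1.55 ± 0.41 (SE) from zone 3, 2.93-fold, with an adjusted p of 0.0501. With the dpc16 block the adjusted p was 0.00332, and without the libraries with Y-linked FPKM it was 7.71e-04. Of the 10 alternatives, 8 made the call of Igfbp2 against zone 3, as for Hamp2, and 5 made that of Hamp. Leaving out 1 library brought the call in 5 of 27 fits, with adjusted p-values of 0.00285 without replicate 3 of dpc16 zone 2, 0.0243 without replicate 1 of dpc16 zone 3, 0.0347 without replicate 2 of dpc8 zone 3, 0.0389 without replicate 1 of dpc8 zone 1 and 0.0482 without replicate 2 of dpc8 zone 1.

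**Figure D2:**
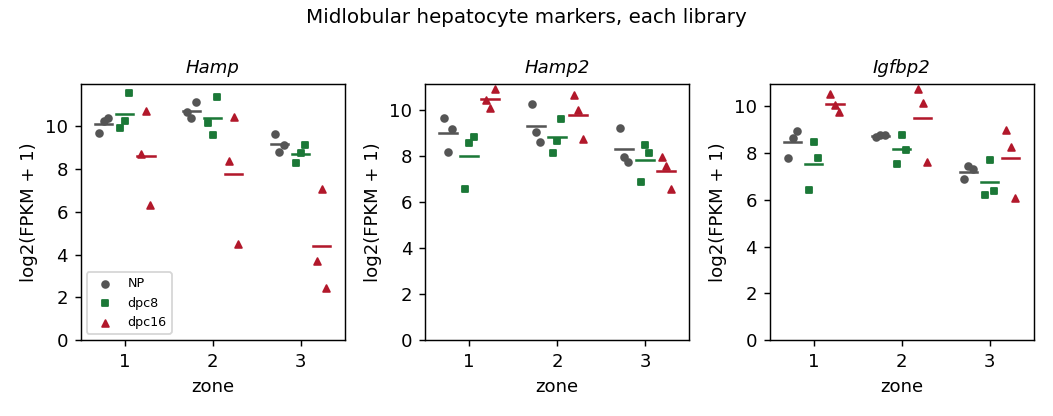
Level of Hamp, Hamp2 and Igfbp2 in each library as log2(FPKM + 1), by zone (horizontal axis) and stage (symbol), with a bar at the mean of each group of 3. The points of zones 1 and 2 overlap for all 3 genes at each stage, except for Hamp in NP, where those of zone 2 lie higher. The bars of zone 3 lie below those of zones 1 and 2 at each stage.

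Over the 9 group means, the genes whose pattern was most like that of Hamp2 were Invs (Pearson r 0.954), Igfbp2 (0.912) and Serpina1c (0.909), a description over points that share libraries. Hamp ranked 3052 of 12951 with an r of 0.294. At dpc16, Hamp in zone 2 spanned 21.8 to 1380 FPKM between libraries, and its change from NP, -2.96, had an adjusted p of 0.194.

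The upstream sequences of Hamp and Hamp2 are shown because these close copies differ in a hepcidin control element. Each line gives the 250 bases before the RefSeq start site on GRCm38.p6, read along the gene, for Hamp at chr7:30944030-30944279 and for Hamp2 at chr7:30924182-30924431, both on the minus strand. The capitals mark GGCGCC, the core of the element through which bone morphogenetic protein signals raise hepcidin, and TTCNNNGAA, the core bound by STAT factors.
Hamp: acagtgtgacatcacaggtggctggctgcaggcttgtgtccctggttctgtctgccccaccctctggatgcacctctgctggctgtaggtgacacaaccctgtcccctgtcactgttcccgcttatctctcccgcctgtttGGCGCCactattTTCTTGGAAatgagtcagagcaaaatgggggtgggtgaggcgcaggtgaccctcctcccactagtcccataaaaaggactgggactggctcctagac
Hamp2: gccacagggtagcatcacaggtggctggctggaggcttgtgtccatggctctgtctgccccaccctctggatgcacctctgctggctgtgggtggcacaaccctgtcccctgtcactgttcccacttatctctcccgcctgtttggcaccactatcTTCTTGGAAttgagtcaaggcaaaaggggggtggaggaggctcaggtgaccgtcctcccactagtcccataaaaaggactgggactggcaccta
The aligned windows were identical at 227 of 253 columns, or 89.7%. The STAT core began 97 bases before the start in Hamp and 94 in Hamp2. GGCGCC was found in Hamp, 109 bases before the start, and not in Hamp2, where the aligned bases carry the substitution G4A, counted from the first base of the motif. On both strands, GGCGCC occurs in 9.59% and TTCNNNGAA in 7.02% of the 32851 RefSeq windows of this length, and a match describes the letters only.

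The hepcidin control and iron handling list, with receptors, SMAD factors, transferrin and iron transport genes, had 27 members tested. None passed the midlobular contrast, where the list's median was 0.02 against 0.00 for all genes, and 5 lay above and 7 below both outer zones, against 28.7% and 25.4% of all genes. With the 6 libraries with Y-linked FPKM left out, 10 lay above and 6 below, and without replicate 3 of dpc16 zone 2 the counts were 10 and 5. By stage, with all libraries, 15 lay above and 3 below in NP, 3 and 9 at dpc8, and 5 and 11 at dpc16. Of all genes, 30.9%, 23.2% and 34.9% lay above at these stages and 34.2%, 23.8% and 29.3% below. Without the 6 libraries the list's counts were 12 and 2, 5 and 9, and 9 and 7, and the change between stages was not tested. Hamp2 was the member that passed against zone 3. The list of the IGFBP2, mTOR and cyclin D1 axis had 25 members tested, with 9 above and 7 below both zones and a median of 0.00, and without the 6 libraries 7 and 5. From this list Ccnd1, which encodes cyclin D1, was higher in zone 2 than in zone 3 by 1.06 ± 0.25 (SE), with an adjusted p of 0.0215, and differed by 0.29 from zone 1, with an adjusted p of 0.9996. In zones 2 and 3 its mean was 62.9 ± 17.4 and 28.3 ± 16.03 FPKM (SD, n = 3) in NP, 64.1 ± 29.8 and 17.7 ± 8.53 at dpc8, and 18.7 ± 2.94 and 17.8 ± 7.51 at dpc16. The libraries of the 2 zones overlapped in NP and at dpc16. The difference from zone 3 was 1.25 in NP, 1.82 at dpc8 and 0.12 at dpc16, and the change of this difference between stages was not tested.

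All 8 peaks are genes that background knowledge places in macrophages or other blood-derived and sinusoidal cells. This grouping was made after the genes had been called and was not tested. Of the 8, 1 (Clec4f) is on the Kupffer cell list described below. Lyz2 encodes lysozyme 2 of myeloid cells, and Clec4f encodes a lectin of Kupffer cells. Cd68 is a lysosomal glycoprotein of macrophages, Siglec1 the adhesion receptor sialoadhesin, Spic a transcription factor of iron-recycling macrophages, and Cfp properdin, which stabilises the alternative complement pathway. Itgal is the alpha chain of the leukocyte integrin LFA-1, and Entpd1 is the ectonucleotidase CD39, found on leukocytes and endothelium.

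Lyz2 (ENSMUSG00000069516.8, mm10 chr10:117277331-117282321, minus strand) was the strict peak. In zone 2 its FPKM was 63.5, 57.8 and 91.5 in the NP libraries, 41.6, 33.97 and 46.8 at dpc8, and 46.0, 33.5 and 23.5 at dpc16. The zone 1 values were 23.0, 31.7 and 40.3 in NP, 19.2, 29.2 and 26.0 at dpc8, and 28.3, 18.9 and 17.8 at dpc16. The zone 3 values were 27.4, 34.7 and 40.0 in NP, 31.3, 46.6 and 40.8 at dpc8, and 15.97, 23.8 and 17.8 at dpc16. The NP zone 2 libraries stood above all 6 outer ones, whereas at dpc8 zone 2 overlapped with zone 3 and at dpc16 with zones 1 and 3. Zone 2 was 1.77-fold higher than zone 1 (log2 difference 0.82 ± 0.16 SE, adjusted p 0.00759) and 1.53-fold higher than zone 3 (0.62 ± 0.16 SE, adjusted p 0.0422). The difference from zone 1 passed in every alternative and in all 27 fits without 1 library. The difference from zone 3 was lost in 15 of those 27 fits, with values of 0.54 to 0.64 and adjusted p-values of 0.0518 to 0.1075: without replicate 2 of NP zone 1, replicates 1 and 3 of NP zone 2, replicates 1 and 2 of NP zone 3, replicate 3 of dpc8 zone 1, replicates 1 and 3 of dpc8 zone 2, replicates 1 and 3 of dpc8 zone 3, replicate 2 of dpc16 zone 1, replicates 1 and 2 of dpc16 zone 2, and replicates 1 and 3 of dpc16 zone 3. It was also lost with quantile normalization (adjusted p 0.0527), without the filter on low values (0.0523) and with stage and zone as additive terms (0.0641). The near copy Lyz1 was at 0 to 1.04 FPKM, with 1 library at or over 1.

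Clec4f, the Kupffer cell lectin, had the smallest adjusted p of the peaks for the midlobular contrast, 0.0195, with a contrast of 0.95 ± 0.18 (SE). In zone 2 it was 97.5, 75.7 and 121 FPKM in NP, 70.5, 43.1 and 73.8 at dpc8, and 60.6, 57.7 and 15.5 at dpc16. Zone 1 libraries had 40.6, 57.2 and 50.3 in NP, 33.9, 35.5 and 32.1 at dpc8, and 43.4, 36.4 and 39.0 at dpc16. Zone 3 libraries had 30.1, 20.8 and 39.6 in NP, 34.6, 45.8 and 36.9 at dpc8, and 12.3, 12.9 and 9.70 at dpc16. Only the NP libraries separated from both outer zones, and dpc16 replicate 3, one of the libraries with Y-linked FPKM, was far below the other zone 2 libraries. Clec4f was 2.50-fold higher than in zone 3 (1.32 ± 0.20 SE, adjusted p 3.84e-04) and 1.496-fold higher than in zone 1, with a difference of 0.58 ± 0.20 (SE) and an adjusted p of 0.393. Without replicate 3 of dpc16 zone 2 the difference from zone 1 was 0.79 with an adjusted p of 0.00392, and without all 6 libraries with Y-linked FPKM it was 0.83 with 6.93e-04. The midlobular call was lost in 5 of 27 fits, with adjusted p-values of 0.058 to 0.0798, without replicate 3 of NP zone 2, replicates 1 and 3 of dpc8 zone 2, or replicates 1 and 2 of dpc16 zone 2. It was also lost with stage and zone as additive terms, with an adjusted p of 0.0618.

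Entpd1 and Itgal missed the strict rule by their adjusted p against zone 1, 0.0522 and 0.0515. Entpd1 in zone 2 was 12.2, 9.91 and 12.4 FPKM in NP, 10.6, 8.48 and 5.51 at dpc8, and 10.3, 6.50 and 16.6 at dpc16. Its outer libraries reached 8.61 in NP, 4.71 at dpc8 and 8.62 at dpc16, so zone 2 stood apart at 2 of 3 stages. The midlobular contrast of Entpd1, 1.03 ± 0.20 (SE), was the largest of the 8, and its highest zone 2 value was in dpc16 replicate 3. Itgal in zone 2 was 11.1, 7.59 and 9.72 FPKM in NP, 6.31, 4.09 and 5.42 at dpc8, and 3.79, 4.31 and 1.55 at dpc16. The NP libraries were above the highest outer value, 4.10, while the dpc8 and dpc16 libraries overlapped with the outer zones. Its midlobular contrast was 1.32 in NP, 0.64 at dpc8 and 0.24 at dpc16, and the difference between dpc16 and NP, -1.08, had an unadjusted p of 0.00656 and an adjusted p of 0.933. With the dpc16 block Itgal passed against zone 1 with an adjusted p of 0.0399.

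The other 4 peaks had midlobular contrasts of 0.57 to 0.86 with adjusted p-values of 0.0346 to 0.0359. Their differences from zone 3 passed, at 1.13 for Cfp, 1.01 for Spic, 0.85 for Siglec1 and 0.72 for Cd68, with adjusted p-values of 0.00193 to 0.00356. Their differences from zone 1 were 0.59, 0.59, 0.49 and 0.42, with adjusted p-values of 0.258 to 0.353. Cfp in zone 2 was 28.8, 18.3 and 25.9 FPKM in NP, 26.4, 16.4 and 20.2 at dpc8, and 21.9, 23.1 and 6.58 at dpc16, and at the first 2 stages it lay above all outer libraries. Cd68 in zone 2 was 11.8, 12.3 and 14.02 in NP, 11.9, 5.85 and 11.1 at dpc8, and 10.04, 9.05 and 6.24 at dpc16, and only the NP libraries stood apart. Siglec1 separated in NP, with zone 2 at 5.74 to 6.57 and the outer libraries at most 3.12. Spic separated at dpc16, with zone 2 at 0.74 to 2.78 and the outer libraries at most 0.60. Quantile normalization ended the midlobular calls of these 4 and of Itgal, with adjusted p-values of 0.1595 to 0.385. A pseudocount of 0.1 ended those of Itgal (0.0539), Siglec1 (0.0613) and Spic (0.0875), and the additive model those of Cfp (0.183), Itgal (0.1203), Spic and Cd68 (0.0584 each). For 6 of the 8 peaks the lowest zone 2 library was dpc16 replicate 3, and the exceptions were Entpd1 and Cd68.

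**Figure D3:**
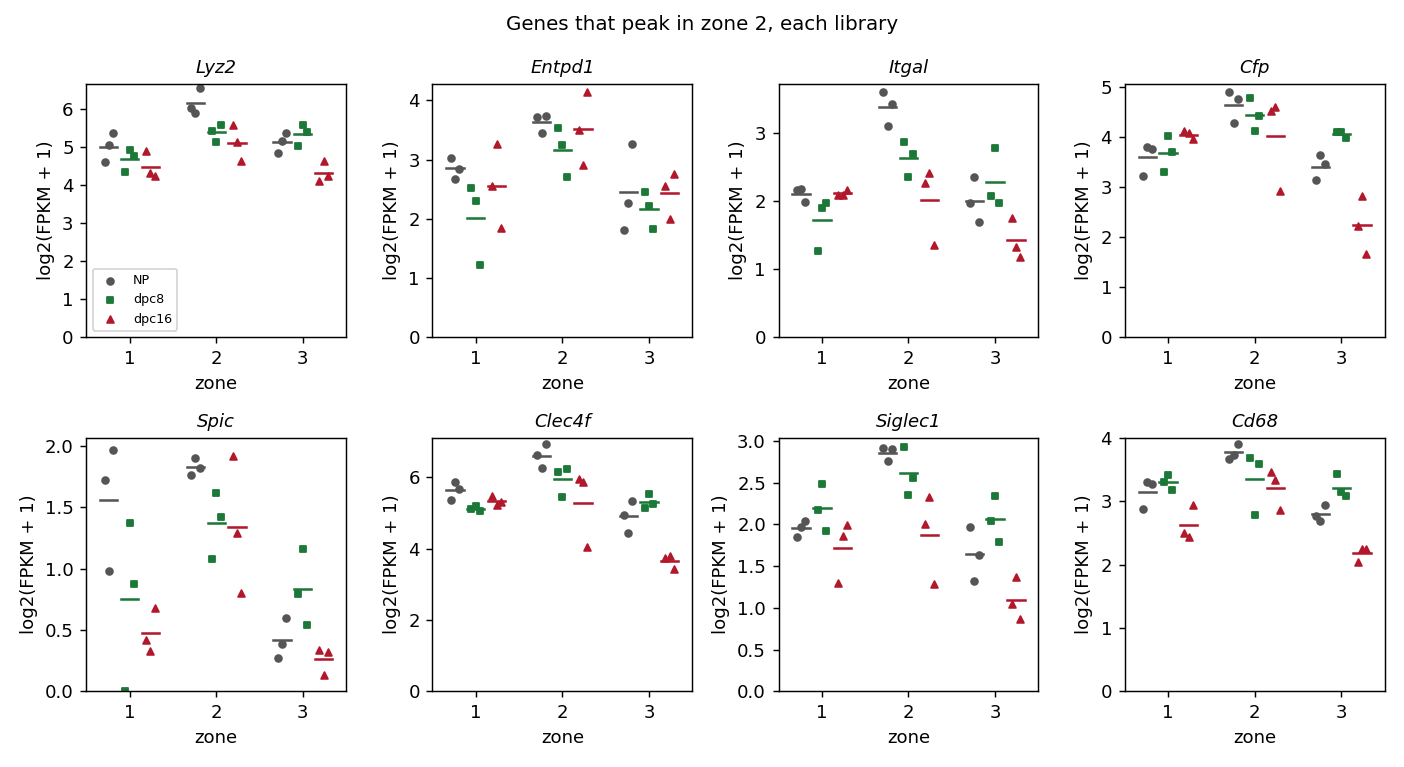
Level of the 8 genes that peaked in zone 2 in each library as log2(FPKM + 1), by zone (horizontal axis) and stage (symbol), with a bar at the mean of each group of 3. The NP points of zone 2 lie above both outer zones for 7 of the 8 genes, which were chosen on these values, against 1.27% of all genes, and the lowest dpc16 point of zone 2 is replicate 3 for all but Entpd1, where the highest is.

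The windows upstream of Lyz2 and Cd68 are shown as the strict peak and as a peak whose window holds GAGGAA, the core sequence bound by PU.1, a transcription factor of myeloid cells. They are the 250 bases before the RefSeq start on GRCm38.p6, at chr10:117282273-117282522 for Lyz2 and chr11:69666171-69666420 for Cd68, both on the minus strand and read along the gene. The capitals mark GAGGAA on either strand.
Lyz2: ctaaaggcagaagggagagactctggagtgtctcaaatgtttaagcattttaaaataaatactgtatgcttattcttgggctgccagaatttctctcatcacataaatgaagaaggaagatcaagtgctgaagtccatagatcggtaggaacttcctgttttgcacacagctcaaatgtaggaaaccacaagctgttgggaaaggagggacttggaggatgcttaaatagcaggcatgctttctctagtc
Cd68: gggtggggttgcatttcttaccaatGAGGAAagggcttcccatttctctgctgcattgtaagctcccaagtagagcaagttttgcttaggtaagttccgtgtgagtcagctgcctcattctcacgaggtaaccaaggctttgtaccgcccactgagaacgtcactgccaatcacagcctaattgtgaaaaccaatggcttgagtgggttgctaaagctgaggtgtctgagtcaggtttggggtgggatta
A window was found for 6 of the 8 peaks, and GAGGAA occurred in that of Cd68 and in window 2 but not window 1 of Entpd1. It also occurred in the window of the dip Adamtsl2, of 3 dips with a window, and in window 2 of Igfbp2. The longer GAGGAAGT occurred in none of the windows of the peaks, dips and midlobular markers. The core is in 23.3% of all windows on one strand or the other, and the longer GAGGAAGT is in 2.44%.

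The genes of the Kupffer cell list lay highest in zone 2, although 1 member passed the midlobular contrast in the main fit. That fit used all libraries and no block, covariate or array weights. All 14 members had fitted levels above both outer zones, against 28.7% of all genes tested, and the median contrast was 0.75 against 0.00 for all genes. The members mark one cell type in the same libraries, so they are not 14 independent results. The list was also chosen with earlier results of these data known. One member, Clec4f, passed the midlobular contrast, 6 passed against zone 3 (Clec4f, Cd5l, Marco, Timd4, Csf1r and Folr2) and 0 passed against zone 1, where the median difference was 0.54. The next 3 members by adjusted p were Csf1r, the receptor of colony stimulating factor 1, with a contrast of 0.86 and an adjusted p of 0.0584, Folr2 with 0.71 and 0.0689, and Cd5l with 0.88 and 0.0743. In the fit with the dpc16 block, these 3, C1qa, Cd163 and Timd4 also passed, with adjusted p-values of 0.0130 to 0.0485. Ferroportin, Slc40a1, which exports iron from macrophages and is also made by hepatocytes, had the smallest contrast, 0.22. List members other than Clec4f are named here after their values had been seen.

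The summed level of the 14 Kupffer cell genes in zone 2 was 664, 498 and 816 FPKM in NP, 648, 402 and 589 at dpc8, and 565, 467 and 143 at dpc16. The zone 1 values were 321, 411 and 479 in NP, 262, 382 and 344 at dpc8, and 413, 312 and 331 at dpc16. The zone 3 values were 275, 270 and 313 in NP, 418, 461 and 310.0 at dpc8, and 208, 234 and 115 at dpc16. Zone 2 was above both outer zones without overlap in NP. At dpc8 it overlapped through replicate 2, and at dpc16 through replicate 3, which are the zone 2 libraries with Y-linked FPKM and had 5033 and 5505 FPKM over the vessel wall and connective tissue list, against 21.3 to 468 in the other 7. In bulk samples such as these, more cells of a type and more RNA per cell cannot be told apart.

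Leaving out those libraries moved the result up rather than down. Without the 6 libraries with Y-linked FPKM there were 14 strict peaks in place of 1 and 32 wider peaks in place of 8. Of the 14, 8 were on the Kupffer cell list (C1qa, C1qb, C1qc, Cd5l, Clec4f, Fcna, Folr2 and Vsig4), and the others were Cd68, Cfp, Insc, Itgal, Lyz2 and Mpeg1, which were named after their values had been seen. Without replicate 3 of dpc16 zone 2 alone there were 12 strict and 34 wider peaks, with 6 and 12 on the list. Array weights, which count variable libraries less, gave 19 strict and 49 wider peaks, with 7 and 11 on the list. The mean of the vessel wall list as a covariate gave 9 and 25, with 1 and 6 on the list, and the additive model gave 1 and 4, with 0 on the list. The dpc16 block gave 2 strict peaks, Itgal and Lyz2, and 19 wider ones, with 7 of the 19 on the list. In all alternatives and all fits without 1 library, 13 or 14 of the 14 Kupffer cell genes stayed above both outer zones.

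Other single libraries moved the number of wider peaks in the other direction. It fell to 0 without replicate 3 of NP zone 2, replicate 1 of dpc8 zone 2 or replicate 1 of dpc16 zone 2, and to 1 without replicate 3 of dpc8 zone 2 or replicate 2 of dpc16 zone 2. It was 2 without replicate 3 of dpc8 zone 3 or replicate 1 of dpc16 zone 1, and 3 without replicate 1 of NP zone 2 or replicate 2 of dpc16 zone 1. It was 4 without replicate 1 of NP zone 1, replicate 1 of NP zone 3, replicate 3 of dpc8 zone 1, replicate 1 of dpc8 zone 3 or replicate 1 of dpc16 zone 3, and 5 without replicate 2 of NP zone 2 or replicate 2 of dpc16 zone 3. The remaining 10 fits gave 6 to 9. Of the 27 fits without 1 library, Lyz2 and Clec4f were wider peaks in 22 each, Entpd1 in 17, Itgal in 15, Cfp in 12, Cd68 in 10, and Siglec1 and Spic in 7 each. Without the libraries with Y-linked FPKM, the call of Entpd1 was lost, with an adjusted p of 0.0956 for the midlobular contrast.

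Markers of the other cell types of the lobule were described in the same way. Of 15 genes of the sinusoidal endothelium, which lines the same channels, 8 lay above and 1 below both outer zones, against 28.7% and 25.4% of all genes, with a median contrast of 0.11, and 0 passed the midlobular contrast. When the 6 libraries with Y-linked FPKM were left out, or replicate 3 of dpc16 zone 2 alone, 11 of the 15 lay above both, with medians of 0.20 and 0.23. Of 14 genes of hepatic stellate cells, 4 lay above and 2 below with a median of 0.07, and of 11 blood cell genes 3 lay above and 3 below with a median of 0.09. Leaving out the 6 libraries, the stellate cell counts were 4 and 1 and those of the blood cells 4 and 1, with medians of 0.10 and 0.15, and without replicate 3 of dpc16 zone 2 they were 6 and 1, and 7 and 2, with medians of 0.16 and 0.40. The summed level of the blood cell genes was 38.8 to 454 FPKM in zone 2, 61.9 to 530 in zone 1 and 95.1 to 431 in zone 3, and these ranges overlapped. Genes of bile duct cells, which lie at the portal tract, had a median contrast of -0.39 over 8 members (-0.53 without the 6 libraries), with 3 of them (Epcam, Sox9 and Pkhd1) lower in zone 2 than in zone 1.

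**Figure D4:**
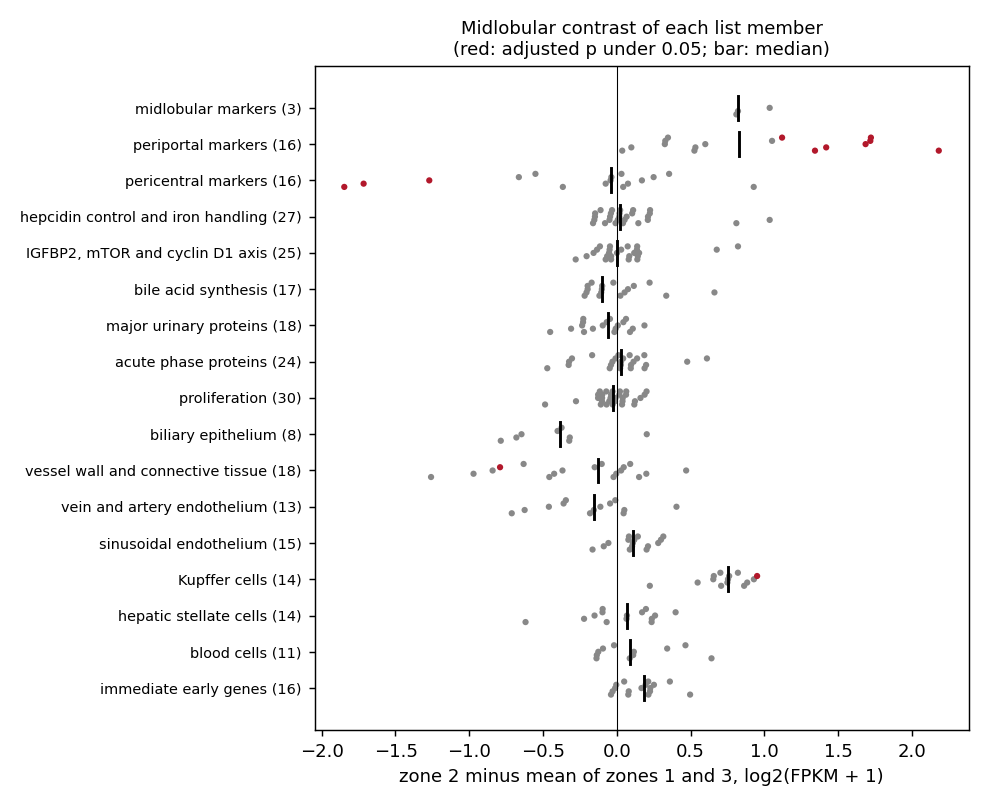
Midlobular contrast in log2(FPKM + 1) of every tested member of each gene list (points; number of members in brackets), with a bar at the list's median and red points past an adjusted p of 0.05. The Kupffer cell genes lie at 0.22 to 0.95 with a median of 0.75, most other lists spread around 0, and the periportal and pericentral lists hold the red points furthest from 0.

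The 4 dips encode matrix proteins and a channel, at low levels. Podn encodes podocan, a small leucine-rich proteoglycan of the matrix, Adamtsl2 a matrix glycoprotein bound to microfibrils, and Eln elastin, the core of elastic fibres of vessel walls. Ano1 encodes a chloride channel opened by calcium. Their zone 2 medians were 0.29, 0.38, 0.10 and 0.83 FPKM, so most zone 2 values rest on few reads. The filter asked for 1 FPKM in 3 libraries, which Podn reached in 1 zone 2 library and Eln in 0, so these genes entered the fit through the outer zones, where they were high. Eln was not tested with the filter of 9 libraries, and without any filter both remained wider dips. With a pseudocount of 0.1 the midlobular contrasts were -2.32 for Podn, -2.64 for Adamtsl2, -1.71 for Ano1 and -2.29 for Eln, against -1.01, -1.50, -0.96 and -0.79 with a pseudocount of 1, so the size of these differences depends on the pseudocount.

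Podn (ENSMUSG00000028600.15, mm10 chr4:108014791-108096445, minus strand) was the strict dip. In zone 2 its FPKM was 0.675, 0.121 and 0 in NP, 1.66, 0.286 and 0.0726 at dpc8, and 0, 0.471 and 0.633 at dpc16. Zone 1 had 3.68, 0.711 and 2.39 in NP, 1.23, 0.631 and 1.04 at dpc8, and 3.62, 2.09 and 2.31 at dpc16. Zone 3 had 2.79, 1.12 and 3.32 in NP, 1.61, 1.27 and 3.54 at dpc8, and 0.864, 1.85 and 0.694 at dpc16. All zone 2 libraries were below all outer ones in NP and at dpc16, which 0.818% and 0.517% of genes were, while dpc8 replicate 1 was as high as the outer zones. Zone 2 differed from zone 1 by -1.02 ± 0.23 (SE) with an adjusted p of 0.0324 and from zone 3 by -0.999 ± 0.23 (SE) with an adjusted p of 0.0223. One or both calls were lost in 16 of 27 fits, with adjusted p-values of up to 0.0862 against zone 1 and 0.0651 against zone 3: without replicates 1 and 3 of NP zone 1, replicates 2 and 3 of NP zone 2, replicates 1 and 3 of NP zone 3, replicates 1 and 3 of dpc8 zone 1, replicates 2 and 3 of dpc8 zone 2, replicate 3 of dpc8 zone 3, replicates 1 and 3 of dpc16 zone 1, replicates 1 and 2 of dpc16 zone 2, and replicate 2 of dpc16 zone 3. Without the libraries with Y-linked FPKM, Podn differed by -0.88 from zone 1 with an adjusted p of 0.117, and no strict dip was left. The call against zone 1 was also lost with quantile normalization (-0.94, adjusted p 0.0816), where Eln was the strict dip, and with array weights (-0.84, adjusted p 0.0652), where Ano1 and Eln were.

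Adamtsl2 had the largest contrast of the dips, -1.50 ± 0.30 (SE) with an adjusted p of 0.0342. In zone 2 it was 3.77, 0.178 and 0 FPKM in NP, 1.89, 0.363 and 0.113 at dpc8, and 0.521, 3.96 and 0.38 at dpc16. In zone 1 it ranged from 1.43 to 10.9 FPKM and in zone 3 from 1.13 to 12.4, and 1 zone 2 library at each stage lay within the outer range. Its adjusted p was 0.0507 against zone 1 and 0.0156 against zone 3, and with the dpc16 block it passed both, with 0.0432 against zone 1. Ano1 in zone 2 was 0.828, 0.366 and 0 FPKM in NP, 0.458, 1.75 and 0.454 at dpc8, and 1.22, 1.22 and 1.05 at dpc16. It was below all outer libraries in NP, whose lowest was 1.53, and at dpc8, whose lowest was 2.215. Its contrast was -1.55 in NP, -1.31 at dpc8 and -0.02 at dpc16, and the dpc16 minus NP difference, 1.53, had an unadjusted p of 0.00588 and an adjusted p of 0.933. Eln differed from zone 1 by -0.96 ± 0.19 (SE), with an adjusted p of 0.009, and from zone 3 by -0.62 with an adjusted p of 0.121. Of the 27 fits that left out 1 library, Podn was a wider dip in 16, Adamtsl2 in 13, Eln in 6 and Ano1 in 5. Without the libraries with Y-linked FPKM, the midlobular calls of Adamtsl2 and Eln were lost, at adjusted p-values of 0.089 and 0.0621. The call of Ano1 was lost with a pseudocount of 0.1 (adjusted p 0.0517), without the filter (0.0551) and in the additive model (0.105), and that of Adamtsl2 in the additive model (0.0542).

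**Figure D5:**
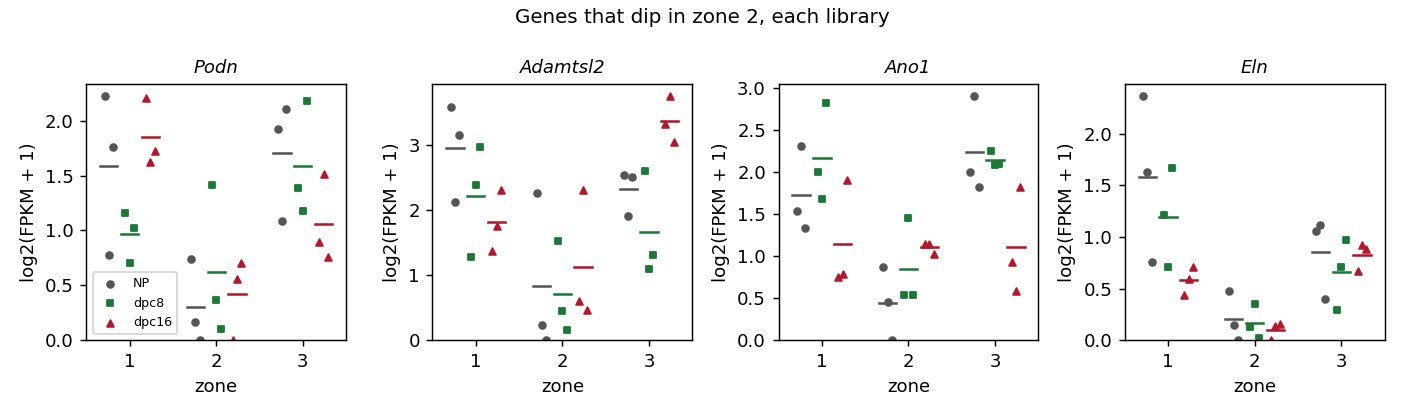
Level of the 4 genes that dipped in zone 2 in each library as log2(FPKM + 1), by zone (horizontal axis) and stage (symbol), with a bar at the mean of each group of 3. Most zone 2 points lie between 0 and 1, below most points of the outer zones, and for Ano1 at dpc16 the 3 points of zone 2 lie within the span of those of zone 1.

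Of the 18 vessel wall and connective tissue genes, 6 lay below and 1 above both outer zones, against 25.4% and 28.7% of all genes, with a median contrast of -0.13. Without replicate 3 of dpc16 zone 2, 16 of the 18 lay below both, with a median of -0.74, and without the 6 libraries with Y-linked FPKM 9 did, with a median of -0.37. In NP, with all libraries, 17 of the 18 lay below both, against 34.2% of all genes, and 12 without the 6. At dpc8, 3 lay below and 3 above, with a median of 0.60, and without the 6 the counts were 4 and 4 and the median -0.11. At dpc16, 5 lay below and 6 above, with a median of 0.21, and without the 6 the counts were 14 and 1 and the median -0.58. Without replicate 3 of dpc16 zone 2 alone, 17 lay below and 1 above at dpc16, with a median of -1.52. Eln, which is both on this list and a dip, was the member past the midlobular contrast. Dpt was lower in zone 2 than in zone 1 (log2 difference -1.68), with an adjusted p of 0.0293, and Gas6 was lower than in zone 3 (-1.15), where the adjusted p was 0.0198. The list's summed level had a median of 65.8 FPKM in zone 2, 189 in zone 1 and 139.7 in zone 3, with ranges of 21.3 to 5505, 40.7 to 3831 and 32.4 to 3163. With the mean of this list as a covariate there were 6 strict dips, among them Podn, Adamtsl2 and Eln. Eln is part of that mean, so its call in this fit is not independent of the covariate. Of 13 genes of vein and artery endothelium, Wnt2, Wnt9b and Rspo3, signals made by central vein endothelium, were lower in zone 2 than in zone 3, with log2 differences of -1.18, -0.86 and -1.40, and Wnt2 was higher than in zone 1 by 0.81, with an adjusted p of 0.0326.

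Markers of the outer zones placed zone 2 between them. All 16 periportal markers lay between the zones, with 6 lower than in zone 1 and 15 higher than in zone 3, and 7 of them passed the midlobular contrast without a peak. Cyp2f2, a cytochrome P450 of periportal hepatocytes, had a median of 1165 FPKM in zone 1, 382 in zone 2 and 3.06 in zone 3. It differed by -1.52 from zone 1 and by 5.88 from zone 3, with a contrast of 2.18, and zone 2 lay nearer to zone 1 than to zone 3 on the log scale. All 16 pericentral markers lay between the zones as well, with 11 higher than in zone 1 and 15 lower than in zone 3, and 3 of them (Glul, Rhbg and Slc1a2) passed the midlobular contrast as lower. Glul, the glutamine synthetase of the hepatocytes next to the central vein, had medians of 69.0, 136 and 2697 FPKM in zones 1, 2 and 3 and a contrast of -1.85.

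The midlobular contrast was also fitted at each stage. In NP it was past the threshold for 1 gene, Cyp2f2, at dpc8 and dpc16 for 0, with 699, 210 and 360 genes at an unadjusted p under 0.05. The differences between stages passed for 0 genes by limma, with 308 genes at an unadjusted p under 0.05 for dpc8 minus NP, 443 for dpc16 minus NP and 165 for dpc16 minus dpc8. No gene had zone 2 above, or below, both outer zones without overlap at all 3 stages. Of the Kupffer cell list, 13 members lay above both outer zones in NP, 14 at dpc8 and 8 at dpc16, with median contrasts of 1.03, 0.65 and 0.58, against 30.9%, 23.2% and 34.9% of all genes tested. At each stage 0 members lay below both, against 34.2%, 23.8% and 29.3% of all genes. Without replicate 3 of dpc16 zone 2, all 14 lay above both at dpc16, with a median of 1.096, and without the 6 libraries with Y-linked FPKM the counts were 13, 14 and 14.

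Within zone 2, the levels at dpc16 were compared with those of NP for the named genes. By limma, 132 genes were higher at dpc16 (1.02%) and 213 lower (1.64%). Of the 8 peaks, 3 passed with all libraries: Itgal fell by 1.37 on the log2 scale with an adjusted p of 0.0107, Lyz2 fell by 1.05 with 0.0409, and Clec4f fell by 1.32 with 0.0473. The other 5 peaks had changes of -0.98 to -0.12 with adjusted p-values of 0.0618 to 0.915. None of the 4 dips passed, with changes of -0.11 to 0.67. The dpc16 zone 2 group includes replicate 3, whose values were the lowest of zone 2 for these 3 genes. Without it their changes were -1.04, -0.81 and -0.70, and none passed, with adjusted p-values of 0.0686, 0.176 and 0.214. Without the 6 libraries with Y-linked FPKM the change of Itgal passed (adjusted p 0.0289), and those of Lyz2 (0.1075) and Clec4f (0.055) did not.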

How the data were processed

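RNA-seq was run on 27 libraries of laser-microdissected liver zones, grouped by their titles. The authors depleted ribosomal RNA, aligned reads to mm10 with HISAT2 2.1.0 and used Cuffdiff from Cufflinks 2.2.1 on protein-coding GENCODE genes; the deposited table gives their FPKM values for 21823 genes and no read counts. Cuffdiff needs reads, so limma 3.58.1 in R 4.3.3 was applied to log2(FPKM + 1), which understates changes at low levels. The 12952 genes that reached 1 FPKM in 3 or more libraries entered the fit, with the 9 groups of stage and zone as means, robust variance estimates and an intensity trend. All tests were two-sided, with Benjamini-Hochberg adjustment over all genes tested and a threshold of 0.05. Stages had equal weight.

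Named genes were Hamp, Hamp2 and Igfbp2; up to 12 peaks and 12 dips, strict ones first, by the smaller of both absolute differences; list members past the contrast; and the 3 genes most like Hamp2. Gene lists were counted and not tested. The members and lists were chosen with earlier results of these data known.

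Depth was estimated from the steps of low FPKM values (91.5% to 97.2% of them per library lay within 0.15 of a whole step), and no interval was computed from it. Gene positions are from GENCODE vM21, which held 21806 of the identifiers, and upstream sequences from RefSeq on GRCm38.p6. The procedure was tested on simulated data.

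Replicate numbers are those of the titles (ex1 to ex3) and recur across groups. The study describes independent experiments, and whether a number marks the same experiment in several zones or stages is not given in the sources used here. Correlations of same-numbered libraries' deviations from their group means were over 0.1 for 4 of 9 pairs in NP, 5 of 9 at dpc8 and 9 of 9 at dpc16 (0.26 to 0.86), so the dpc16 libraries were treated as paired, in a fit chosen after seeing the data. Replicate 3 of dpc16 zones 2 and 3 is in both cases a library with Y-linked FPKM, with vessel wall means of 5.52 and 5.33 in log2(FPKM + 1). Deviations from a mean of 3 libraries also depend on one another. These correlations therefore do not show whether same-numbered libraries share an animal, which was not tested. The other alternatives were quantile normalization, a pseudocount of 0.1, no filter, a filter of 9 libraries, array weights, an additive model, a block over all stages, a vessel wall covariate, and fits without the libraries with Y-linked FPKM or without each library in turn.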

Additional observations from a re-analysis of the deposited data

How the results depend on the processing

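The numbers of peaks and dips moved with several settings, and the cause was not tested. Against 8 wider peaks, 4 wider dips and 1 strict peak and dip each, quantile normalization gave 3 wider peaks, a pseudocount of 0.1 gave 5 wider peaks and 3 strict dips, and the additive model gave 4 wider peaks and 2 wider dips. Without the filter on low values, 1 gene passed the difference between dpc16 and NP. Array weights gave 73 higher and 37 lower genes for the midlobular contrast, 19 strict and 49 wider peaks, and 2 strict and 14 wider dips, and turned the difference of Hamp from zone 1 to 0.2175. The vessel wall covariate gave 39 higher and 25 lower genes, 9 strict and 25 wider peaks, and 6 strict and 8 wider dips, with Igfbp2 at -0.126 from zone 1. Without the libraries with Y-linked FPKM there were 54 higher genes, 14 strict and 32 wider peaks and 0 strict dips, with Hamp at 0.3681 from zone 1. The replicate block over all stages gave 33 higher genes, 4 strict and 19 wider peaks, and 4 strict and 8 wider dips; the block at dpc16 gave 33 higher genes, 2 strict and 19 wider peaks, and 2 strict dips. Of 67 differences of named genes, the dpc16 block lost 0 calls and gained 10, of which those of Hamp, Igfbp2, Itgal and Adamtsl2 are given above and the others are midlobular contrasts of Kupffer cell genes (C1qa, Cd5l, Timd4, Csf1r, Cd163 and Folr2, adjusted p by limma 0.0130 to 0.0485). Leaving out 1 library gave 4 to 50 higher and 9 to 16 lower genes, 0 to 12 strict and 0 to 34 wider peaks, and 0 to 2 strict and 0 to 4 wider dips, with the highest numbers of higher genes and peaks without replicate 3 of dpc16 zone 2. The difference from zone 1 then spanned -0.5666 to 0.4201 for Hamp, -0.08488 to 0.3283 for Hamp2 and -0.1137 to 0.4052 for Igfbp2. The FPKM table holds no counts, so the low values of the dips carry no interval.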

Other observations

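Of 17 genes of bile acid synthesis, 2 lay above and 4 below both outer zones with a median contrast of -0.10, and 0 passed the midlobular contrast. Cyp7b1, an enzyme of the alternative route, was higher in zone 2 than in zone 1 by 1.37, with an adjusted p by limma of 0.0232. By stage, the counts of bile acid, acute phase and proliferation genes moved with the libraries with Y-linked FPKM. Of the 17 bile acid genes, 7 lay above both zones in NP and 12 below both at dpc16, against 30.9% and 29.3% of all genes, and without those 6 libraries the counts were 4 and 4. Replicate 3 of dpc16 zone 2 had a bile acid sum of 733 FPKM, against 2825 and 2408 in the other replicates. For 24 acute phase genes the median contrast over the stages was 0.03 with all libraries and 0.27 without the 6, with 2 and 15 members above both zones. In the single stages, 15 members lay above both zones in NP and 9 below both at dpc16, and without those libraries 9 and 0. The acute phase sum of the same replicate was 7312 FPKM, against 26330 and 40680. Of 30 proliferation genes, 20 lay below both zones in NP, 0 at dpc8 and 2 at dpc16, against 34.2%, 23.8% and 29.3% of all genes, and without those libraries 8, 3 and 17. The proliferation sum in NP was 204 FPKM in zone 1 replicate 1 and 153 in zone 3 replicate 2, which are among the 6, against 40.5 to 61.3 in the other outer libraries and 54.9 to 67.7 in zone 2. The differences between stages of these lists were not tested.

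Of 18 major urinary protein genes, which are near-identical copies with uncertain values, 0 lay above and 1 below both zones over the 3 stages, against 28.7% and 25.4% of all genes. The immediate early genes, which respond within minutes to handling and stress, had a median contrast of 0.18, with 3 of 16 above and 0 below both zones and 0 past the threshold. Without the 6 libraries with Y-linked FPKM the median was 0.03 with 1 of 16 above and 3 below, and without replicate 3 of dpc16 zone 2 these values were the same. With all libraries they had a summed level of 136 to 484 FPKM in zone 2, 153 to 485 in zone 1 and 91.9 to 276 in zone 3, and the highest zone 2 sums, 484 and 467, were those of dpc8 replicate 2 and dpc16 replicate 3, which are among the 6. Ngfr, a receptor of stellate cells, was higher in zone 2 than in zone 3 by 0.86, with an adjusted p by limma of 0.0356.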
